A study of Mus musculus with 6 samples.

Results

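Expression of 10 extracellular matrix genes was compared between wild-type and Lhx6-/-;Lhx8-/- mouse embryos. Lhx6 and Lhx8 encode LIM-homeodomain transcription factors of the first pharyngeal arch. The genes were Bgn, Col5a1, Col12a1, Col19a1, Eln, Fbn1, Loxl1, Npnt, Thbs1 and Thbs2, and they were found as every probe set of the deposited significance table that carries 1 of these symbols. They are 10 of the 842 genes that the table names by a single symbol, with 12 probe sets of its 1061 and of the 45101 on the array. Bgn and Npnt had 2 probe sets each, and the other 8 genes had 1. The significance table is the only source of gene names used here. The submitters had filled it with probe sets that differed between the genotypes on these same arrays, so that each gene was bound to differ in it.

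Affymetrix arrays measured RNA from the maxillary arch mesenchyme at embryonic day 10.5, from which upper jaw and palate develop. The tissue was cut by laser from frozen head sections, within the territory where Lhx6 and Lhx8 are normally active, and the RNA was amplified before hybridisation. There were 3 arrays of wild-type embryos, numbered 1, 4 and 5 in the sample titles, and 3 of double-mutant embryos, numbered 1, 2 and 4. In the deposited significance table the first wild-type column is numbered unlike any sample title. Its values stand first below without a number, before wild types 4 and 5. All 6 embryos were female, were matched by somite count and were of a mixed C57BL/6J, 129 and CD-1 background. The parts of Lhx6 and Lhx8 that were deleted are not given in the sources used here. In such bulk samples fewer cells of a type and less RNA per cell cannot be told apart.

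The extracellular matrix is the secreted network that holds a tissue together and presents signals to its cells. Collagens form its fibres. Elastic fibres consist of an elastin core, crosslinked by enzymes of the lysyl oxidase family, on a scaffold of fibrillin microfibrils. Proteoglycans bind and space collagen fibrils, adhesive glycoproteins bind integrins on cells, and matricellular proteins modulate contact between cell and matrix rather than carry load. In the arches this matrix surrounds neural crest-derived mesenchyme, which later makes cartilage, bone and connective tissue of the face.

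Of the 10 genes 9 had higher mean intensity in the double mutants and Fbn1 alone had lower intensity. In the authors' deposited table the folds of Npnt, 3.76 and 4.33, stood above those of the other genes, which lay between 1.26 and 1.86. Of the 12 probe sets 11 were listed as higher there, where 60.8% of all listed probe sets were. The median log2 fold change over the 12 was 0.67 in the deposited raw intensities, against 0.38 over all 1061 listed probe sets. In the table of all probe sets, here called the value table, it was 0.54 over the 12 and 0.04 over 45037 probe sets. No member passed the test across the array: limma gave an adjusted p under 0.05 to 0 of 14446 probe sets, which is 0% of them, while 245 (1.7%) had an unadjusted limma p under 0.05. Nothing in the labels says more of the replicates than that they were separate embryos, and 3 arrays in each group limit the precision of every value. By class, the median log2 fold change in the deposited raw intensities was 0.73 for the 3 collagen genes, 0.64 for the 3 elastic fibre genes, 0.60 for both Bgn probe sets, 2.01 for both Npnt probe sets and 0.67 for both thrombospondins. The same medians in the value table were 0.51, 0.30, 0.61, 1.81 and 0.41, and without double mutant 1 they were 0.43, 0.30, 1.13, 1.74 and 0.37.

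In the value table the array of double mutant 1 stood apart from the other 5. The 3'-end probe sets of Actb were 24.8 times as bright as the 5'-end ones, and those of Gapdh 17.8 times, where the others had 1.62 to 1.85 and 1.36 to 1.6, and its log2 intensities correlated with theirs at 0.887 to 0.91 across probe sets, which are no independent replicates. The other 5 correlated with each other at 0.979 to 0.990. In the deposited raw intensities, over the 1061 listed probe sets, the lowest correlation within the mutants was 0.976 for mutant 1, and 0.976 and 0.977 for mutants 2 and 4. Those probe sets were kept because the genotypes differed on them, which favours agreement among the mutants. These correlations therefore cannot show whether the array stood apart there, and are not comparable with those over the value table. Lhx8 intensity on this array was 2036 in the value table, inside the range of 1992 to 2241 of the wild types, and 5177 in the deposited raw intensities, below their range of 8628 to 9493. The other double mutants had Lhx8 intensities of 699 and 911 in the value table. No probe set is named Lhx6, so Lhx6 was not analysed here. Results are given with and without the array labelled double mutant 1.

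Promoter sequences of RefSeq (GRCm38.p6) were read for the members, because homeodomain proteins such as Lhx6 and Lhx8 are known to bind TAAT cores. The windows run from 250 bases before to 50 bases after a gene start, and 6 of the 10 members matched, with 7 windows. Npnt is shown as the member with the largest difference, Fbn1 as the member with lower intensity, and Thbs2 and Col19a1 as the members whose window holds a TAAT core. Capitals mark TAAT or its reverse complement ATTA, and the GC box GGGCGG or its reverse complement CCGCCC. Npnt lies at chr3:132950242-132950541 on the minus strand, Fbn1 at chr2:125506389-125506688 on the minus strand, Thbs2 at chr17:14694213-14694512 on the minus strand and Col19a1 at chr1:24587388-24587687 on the minus strand, each of 300 bases.
Npnt: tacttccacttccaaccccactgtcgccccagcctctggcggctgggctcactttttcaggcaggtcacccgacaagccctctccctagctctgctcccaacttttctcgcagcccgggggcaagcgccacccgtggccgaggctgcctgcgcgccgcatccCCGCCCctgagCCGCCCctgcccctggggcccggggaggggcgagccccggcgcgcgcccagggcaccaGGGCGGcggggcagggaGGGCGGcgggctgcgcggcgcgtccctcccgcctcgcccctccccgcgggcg
Fbn1: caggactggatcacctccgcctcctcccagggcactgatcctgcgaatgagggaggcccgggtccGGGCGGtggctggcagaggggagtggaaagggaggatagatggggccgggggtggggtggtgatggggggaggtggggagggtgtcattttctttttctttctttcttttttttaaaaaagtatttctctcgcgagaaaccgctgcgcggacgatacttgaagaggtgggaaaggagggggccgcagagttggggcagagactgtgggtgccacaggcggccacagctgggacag
Thbs2: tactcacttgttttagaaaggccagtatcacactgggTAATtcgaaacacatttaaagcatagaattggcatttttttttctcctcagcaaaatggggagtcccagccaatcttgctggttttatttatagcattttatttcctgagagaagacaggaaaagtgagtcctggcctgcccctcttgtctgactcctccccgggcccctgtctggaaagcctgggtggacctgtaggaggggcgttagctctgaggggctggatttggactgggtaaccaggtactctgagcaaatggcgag
Col19a1: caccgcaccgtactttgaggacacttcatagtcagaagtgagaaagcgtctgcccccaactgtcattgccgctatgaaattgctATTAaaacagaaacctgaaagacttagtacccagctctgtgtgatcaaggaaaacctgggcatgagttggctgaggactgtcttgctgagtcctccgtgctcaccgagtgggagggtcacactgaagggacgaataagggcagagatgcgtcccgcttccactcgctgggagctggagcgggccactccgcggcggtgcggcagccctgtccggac
The palindrome TAATTA, searched on both strands, was in 0 of the 7 member windows and in 5.29% of all 32851 windows of this length. A TAAT core, which also lies within every TAATTA, was in 2 of 7 and in 58.0% of all windows. A GC box was in 4 of 7, those of Bgn, Col5a1, Fbn1 and the first Npnt window, and in 35.7% of all. The GC content of the member windows ran from 48.3% to 76.7%, against a median of 52.7% over all windows. These are matches of letters, and what binds there was not measured.

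Npnt encodes nephronectin, a secreted ligand of integrin alpha8 beta1 known from kidney development, where it acts at the basement membrane. In the deposited raw intensities, which are linear and in arbitrary units, its probe set 1426561_a_at gave 193, 173 and 166 on the wild-type arrays and 943, 701 and 445 on double mutants 1, 2 and 4. The second probe set, 1452107_s_at, gave 108, 106 and 102 in wild type and 660, 474 and 302 in the double mutants. Both probe sets put every mutant far above every wild type, with mutant 1 highest and mutant 4 lowest. The highest mutant stood 2.12 and 2.18 times above the lowest, while the wild types lay within 1.16 and 1.05 times of each other. The means were 177 ± 13.5 and 697 ± 249 (SD, n = 3 each) on the first probe set, and 105 ± 2.69 and 479 ± 179 on the second. In the authors' deposited table Npnt was 3.76-fold higher with p = 0.00402 on the first probe set and 4.33-fold higher with p = 0.00296 on the second, by an unpaired test without correction. Both probe sets are placed by the file on chromosome 3 from 132544708 to 132613255, minus strand, in a genome build that no header or label names, and the file gives both the same representative sequence, so they are not independent.

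The value table showed the same direction for Npnt. There 1426561_a_at had 33.4, 41.9 and 25.9 on wild types 1, 4 and 5, and 228.2, 207.3 and 115.1 on mutants 1, 2 and 4. The other probe set had 33.5, 33.3 and 37.4 against 136.9, 169.3 and 126.1. The groups were apart on both, but on the second probe set mutant 1 lay between the other mutants rather than above them. The log2 fold change, taken after adding 16 to each intensity, was 1.97 ± 0.31 (SE) for the first probe set, with a 95% confidence interval of 1.23 to 2.71. It was 1.65 ± 0.22 (SE) for the second, with an interval of 1.13 to 2.17. Their unadjusted limma p-values were 0.000481 and 0.000158, ranks 6 and 2 of 14446, and the adjusted p was 0.764 for both. Without double mutant 1 the log2 fold changes were 1.80 and 1.68, and the second probe set passed with an adjusted limma p of 0.0450, among 9 of 13904 probe sets (0.0647%) that did.

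**Figure D1:**
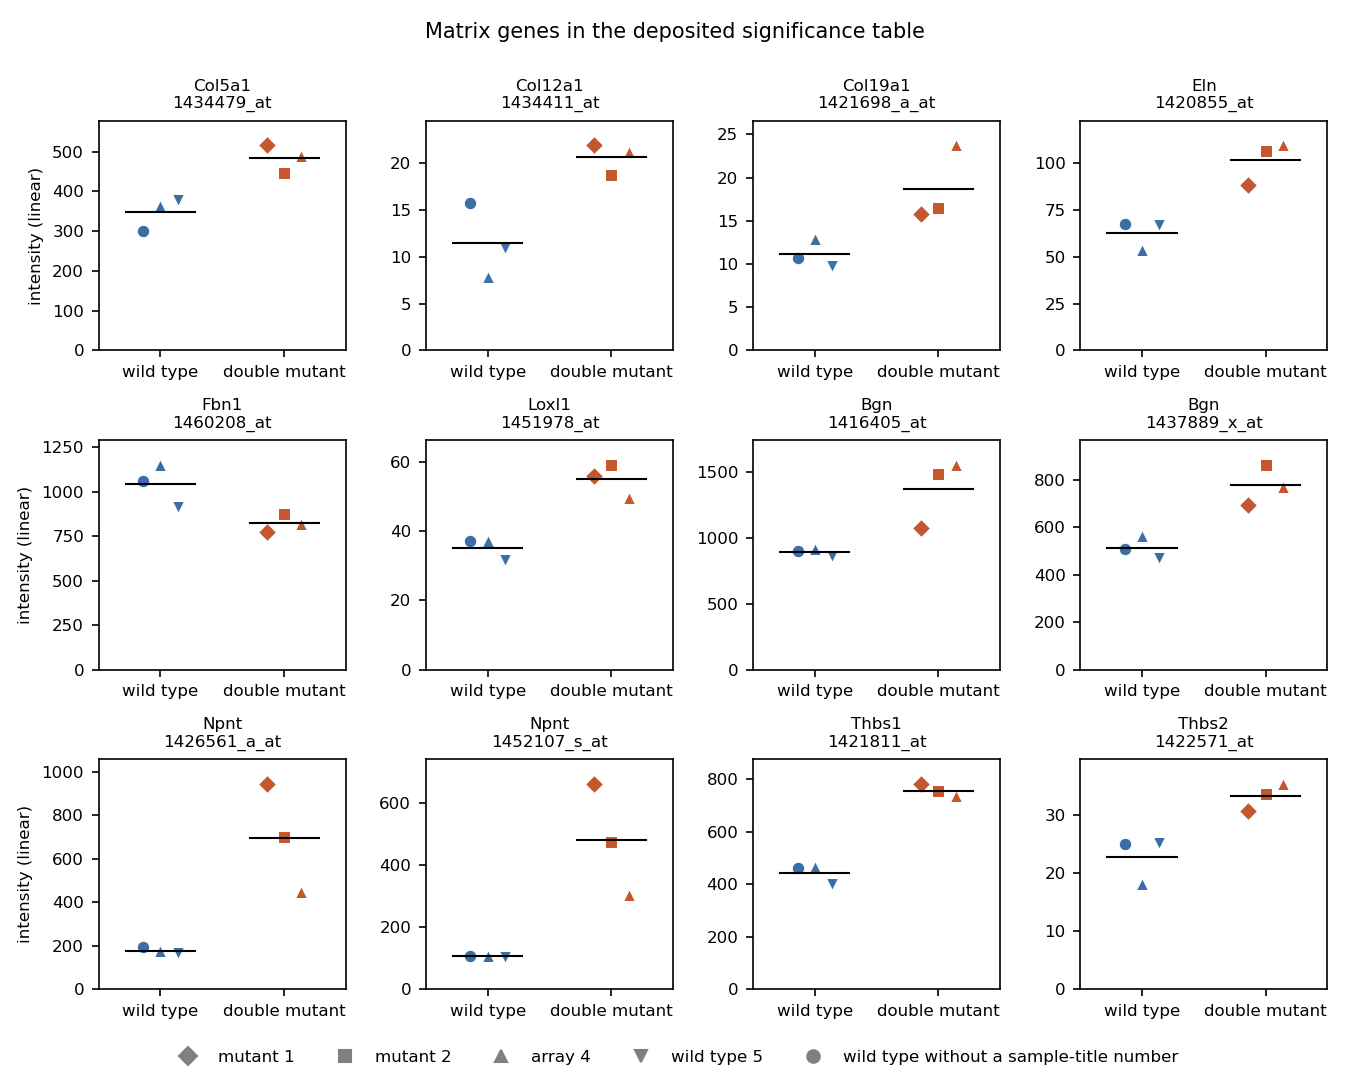
Raw linear intensity of each of the 12 probe sets in the deposited significance table, with 1 point per array, blue for wild type and red for double mutant, the marker shape giving the array and a black line the group mean. The double mutants lie above the wild types in every panel except that of Fbn1, where they lie below, and for Npnt 1426561_a_at they range from 445 to 943 above wild types of 166 to 193.

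Thbs1 encodes thrombospondin 1, a matricellular glycoprotein known to activate latent TGF-beta and to restrain blood vessel growth. Its deposited raw intensity was 463, 466 and 400 on the wild-type arrays and 782, 753 and 735 on mutants 1, 2 and 4. The mutants were close together, with the highest 1.06 times the lowest, and all were well above the wild types. Thbs1 was, in the authors' deposited table, 1.71-fold higher with p = 0.000541, the smallest p of the 10 genes there. In the value table the wild types had 197.1, 166.8 and 167 and the mutants 287.2, 295.7 and 290.6. Mutant 1 did not stand out here, since the mutants had a mean of 291 ± 4.28 (SD, n = 3) and the wild types one of 177 ± 17.4. The log2 fold change was 0.67 ± 0.20 (SE, 95% interval 0.19 to 1.16), with an adjusted limma p of 0.764, or 0.0137 before adjustment. Leaving out double mutant 1 gave 0.68. The unadjusted limma p was 0.0705 without wild type 4 and 0.0565 without wild type 5. The file places Thbs1 on chromosome 2 from 117937628 to 117952869, plus strand.

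Thbs2 encodes thrombospondin 2, a close relative that is known to affect collagen fibril assembly. Its raw intensity was low throughout, at 25.1, 18.1 and 25.2 in wild type and 30.7, 33.6 and 35.3 in the mutants. The groups did not overlap, and the authors' deposited table gave 1.47-fold higher with p = 0.0302. The value table did not separate the groups: wild types had 9, 0.8 and 4.1, and mutants 9.4, 8.3 and 2.5. These values were below the median of all probe sets on each array, at percentiles of 10.4 to 38.3. The log2 fold change was 0.15 there and 0.06 without double mutant 1. Leaving out each array in turn gave 0.01 to 0.29, the lowest without wild type 4 and the highest without wild type 1, and adding 1 in place of 16 gave 0.63. Thbs2 was under the intensity limit of 100 for testing. Without that limit its unadjusted limma p was 0.506.

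Both thrombospondin genes belong to the matricellular proteins, and 6 of 23 genes on a list of that class were listed. All 6 had higher intensity in the double mutants, where 60.8% of all listed probe sets were higher. Over the whole array 1061 of 45101 probe sets were listed. Since the thrombospondins are members, the list adds 4 genes: Cyr61, Tgfbi, Tnr and Wisp1. Cyr61, which encodes a matrix-bound protein induced by growth factors and mechanical load, had raw intensities of 394, 422 and 294 in wild type and 1489, 597 and 726 in the mutants on its probe set 1416039_x_at. The array of mutant 1 was the highest by far, and mutants 2 and 4 were also above every wild type. This probe set was, in the authors' deposited table, 2.36-fold higher with p = 0.0452. The other Cyr61 probe set, 1438133_a_at, had 106, 98.7 and 66.7 against 374, 179 and 151. Tgfbi, which encodes a TGF-beta-induced adhesion protein, had 548, 670 and 570 against 1405, 896 and 814, again highest on mutant 1. In the value table the Tgfbi groups overlapped, at 222.6, 368.7 and 243.9 against 987.8, 478.9 and 326.3. Wisp1, a WNT-induced gene of the same family as Cyr61, had 35.7, 39.0 and 46.6 against 65.2, 63.4 and 69.1 on its probe set 1448594_at. On its other probe set, 1448593_at, the groups were closer, at 24.3, 17.2 and 20.4 against 26.1, 35.6 and 30.3. Tnr, for tenascin R, had a group mean of 13.5 at most, and its groups also overlapped in the value table.

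Of 39 collagen genes on the list 3 were listed, all of them members with higher intensity. That list does not hold every collagen gene: Col4a4, which it lacks, was also listed as higher. Col5a1 encodes a chain of the fibril-forming collagen V, which is known to set the diameter of collagen fibrils. Its raw intensity was 301, 364 and 379 in wild type and 516, 447 and 489 in the mutants. The groups were apart by less than the spread within the wild types. The authors' deposited table lists Col5a1 at 1.40-fold higher with p = 0.0157. Intensities in the value table were 77.2, 110.3 and 102.5 against 162.1, 142.4 and 126.3. Mutant 1 was the highest array in both tables. The log2 fold change was 0.51 ± 0.23 (SE, 95% interval -0.05 to 1.06), with an adjusted limma p of 0.764, or 0.0665 before adjustment. Without double mutant 1 it was 0.43 with an unadjusted limma p of 0.0438. The aligned stretch covered 1028 bases of chromosome 2, from 27894007 to 27895034 on the plus strand.

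Col12a1 and Col19a1 encode chains of collagens that associate with fibrils rather than form them, and both were dim. Col12a1 had raw intensities of 15.7, 7.90 and 10.96 in wild type and 21.9, 18.7 and 21.2 in the mutants. Its wild types differed by 1.99 times between the highest and the lowest, more than the mutants with 1.17 times. Col12a1 was, in the authors' deposited table, 1.86-fold higher with p = 0.0390. Col19a1 had 10.7, 12.9 and 9.7 against 15.8, 16.4 and 23.8, with mutant 4 the highest array. In the authors' deposited table Col19a1 was 1.66-fold higher with p = 0.0299. For Col12a1 the value table gave 6.5, 1.8 and 2.7 in wild type and 21.5, 13.3 and 11.1 in the mutants. Col19a1 had 2.9, 3.8 and 1.9 there in wild type and 7.9, 7.8 and 8.5 in the mutants. The groups did not overlap for either gene, but both stayed under the intensity limit for testing. Their log2 fold changes in the value table were 0.66 and 0.35 after adding 16, and 1.88 and 1.26 after adding 1, so that the size of the difference at these dim probe sets depends on the constant. Without the intensity limit the unadjusted limma p was 0.00924 for Col12a1 and 0.0148 for Col19a1, and the adjusted p was 0.857 for both.

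**Figure D2:**
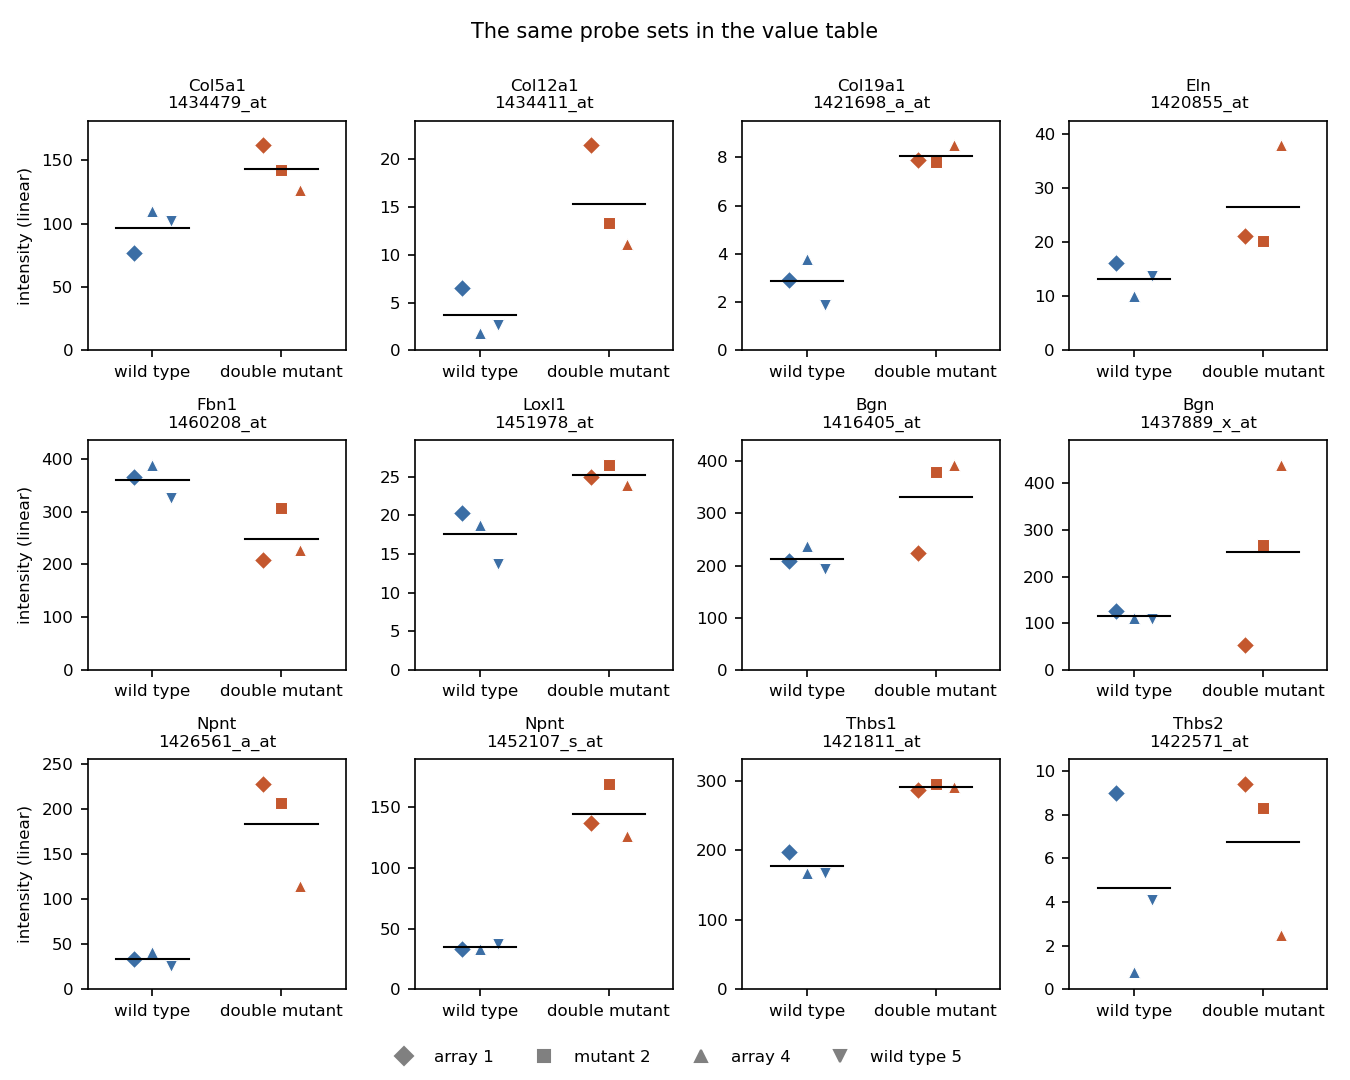
Linear intensity of the same 12 probe sets in the value table, with 1 point per array, blue for wild type and red for double mutant, the marker shape giving the array and a black line the group mean. The groups overlap for Thbs2 and for both Bgn probe sets, and double mutant 1 lies among the wild types for Bgn 1416405_at and below them for Bgn 1437889_x_at.

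The elastic fibre genes lay on both sides, with Eln and Loxl1 higher in the double mutants and Fbn1 lower. Eln encodes elastin, and Loxl1 a lysyl oxidase-like enzyme that crosslinks it. Fbn1 encodes fibrillin 1, the main microfibril protein, which also holds latent TGF-beta complexes in the matrix. Of 23 genes on the list of elastic fibres and crosslinking, these 3 were listed, 2 with higher intensity and 1 with lower.

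Eln had raw intensities of 67.4, 53.3 and 67.0 in wild type and 88.3, 106.3 and 109.4 in the mutants. Every mutant was above every wild type and mutant 1 was the lowest of its group. Eln was, in the authors' deposited table, 1.62-fold higher with p = 0.00923. In the value table it had 16.1, 10.1 and 13.7 against 21.2, 20.3 and 38. There mutant 4 stood well above the rest of its group, and the log2 fold change of 0.52 was 0.33 without that array and 0.60 without double mutant 1. Loxl1 had raw intensities of 37.1, 37.1 and 31.5 against 56.0, 59.2 and 49.6, and the authors' deposited table put the fold at 1.56 with p = 0.00417. Its value table intensities were 20.3, 18.8 and 13.7 against 25, 26.6 and 24. The mutants lay close together in both tables, and the value table's log2 fold change was 0.30 with and without double mutant 1. Neither gene reached the intensity limit for testing. Without it the unadjusted limma p was 0.0390 for Eln and 0.0521 for Loxl1.

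Fbn1 had raw intensities of 1061, 1152 and 912 in wild type and 773, 877 and 819 in the mutants. The gap between the lowest wild type and the highest mutant was small beside the spread of either group. Fbn1 was, in the authors' deposited table, 1.26-fold lower with p = 0.0405, next to the limits of 1.25 and 0.05 at which the submitters kept a probe set. The value table gave 365.6, 389.6 and 325.9 against 208.6, 307.6 and 226.7, with mutant 2 near the wild types. The log2 fold change there was -0.53 ± 0.24 (SE, 95% interval -1.10 to 0.04), with an adjusted limma p of 0.764, or 0.0635 before adjustment. It was -0.42 without double mutant 1, with an unadjusted limma p of 0.0449, and -0.69 without double mutant 2, with one of 0.0383. The file places Fbn1 on chromosome 2 from 125125860 to 125333729, minus strand, and Eln on chromosome 5 from 135178462 to 135223193, minus strand.

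**Figure D3:**
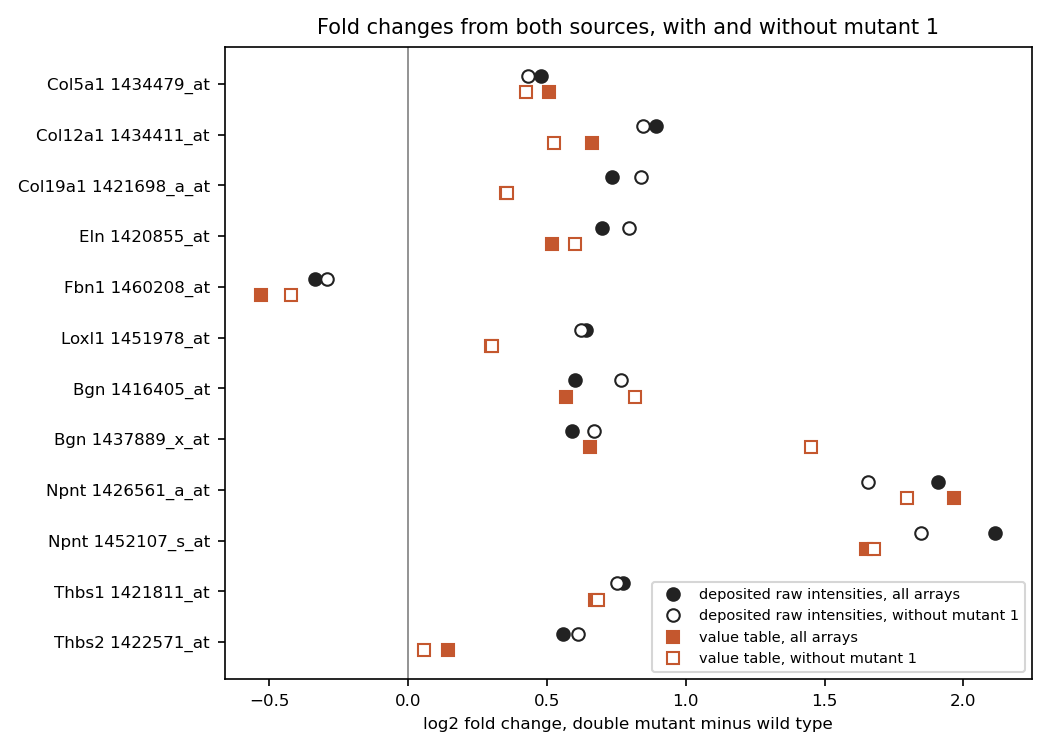
Log2 fold change, double mutant minus wild type, of each probe set from the deposited raw intensities (circles) and from the value table after adding 16 (squares), with all arrays (filled) and without double mutant 1 (open). Fbn1 lies left of 0 and the other 11 probe sets right of it in all 4 versions, and the open square of Bgn 1437889_x_at lies at 1.45 against 0.66 for its filled square.

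Bgn encodes biglycan, a small leucine-rich proteoglycan that binds collagen and is known to bind BMP and TGF-beta ligands. Its probe set 1416405_at had raw intensities of 901, 917 and 867 in wild type and 1077, 1487 and 1558 in the mutants. Probe set 1437889_x_at had 508, 562 and 472 against 695, 863 and 768. The groups were apart on both, and mutant 1 was the lowest mutant on both. In the authors' deposited table the probe sets were 1.52-fold and 1.51-fold higher, with p = 0.0237 and p = 0.00707. Both lie on the X chromosome, the first from 70728980 to 70741722 and the second on the 450 bases from 70740822 to 70741271, plus strand. The suffix of the second marks a probe set with probes that may also match other transcripts.

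The value table gave a different picture for Bgn on the array of mutant 1. On 1437889_x_at mutants 2 and 4 also changed order. Mutant 2 was the higher of them in the deposited raw intensities, and mutant 4 in the value table. The first probe set had 208.2, 237.7 and 193.1 in wild type, 379.4 and 393.8 on mutants 2 and 4, and 223.6 on mutant 1. The second had 126.7, 111 and 109.4 in wild type, 267.5 and 440.0 on mutants 2 and 4, and 52.9 on mutant 1. Mutant 1 was therefore inside the wild-type range on the first probe set and below it on the second, and the groups overlapped. The log2 fold changes were 0.57 ± 0.28 and 0.66 ± 0.67 (SE), with unadjusted limma p-values of 0.0855 and 0.359 and an adjusted p of 0.764 for both. Without double mutant 1 they were 0.82 and 1.45, with unadjusted limma p-values of 0.000787 and 0.000383 and adjusted p-values of 0.210 and 0.148. Without double mutant 4 the second was 0.09. Of 32 genes on the proteoglycan list 3 were listed, and the other 2 were lower: Hapln1, which encodes a link protein between hyaluronan and proteoglycans, and Prg4, which encodes lubricin. The Prg4 groups overlapped in the value table, at 7.6, 12.8 and 12 in wild type and 1.1, 5.8 and 13.8 in the mutants. Hapln1 had raw intensities of 74.3, 76.0 and 68.5 in wild type and 41.6, 53.5 and 41.2 in the mutants. The authors' deposited table lists it at 1.62-fold lower with p = 0.00614.

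**Figure D4:**
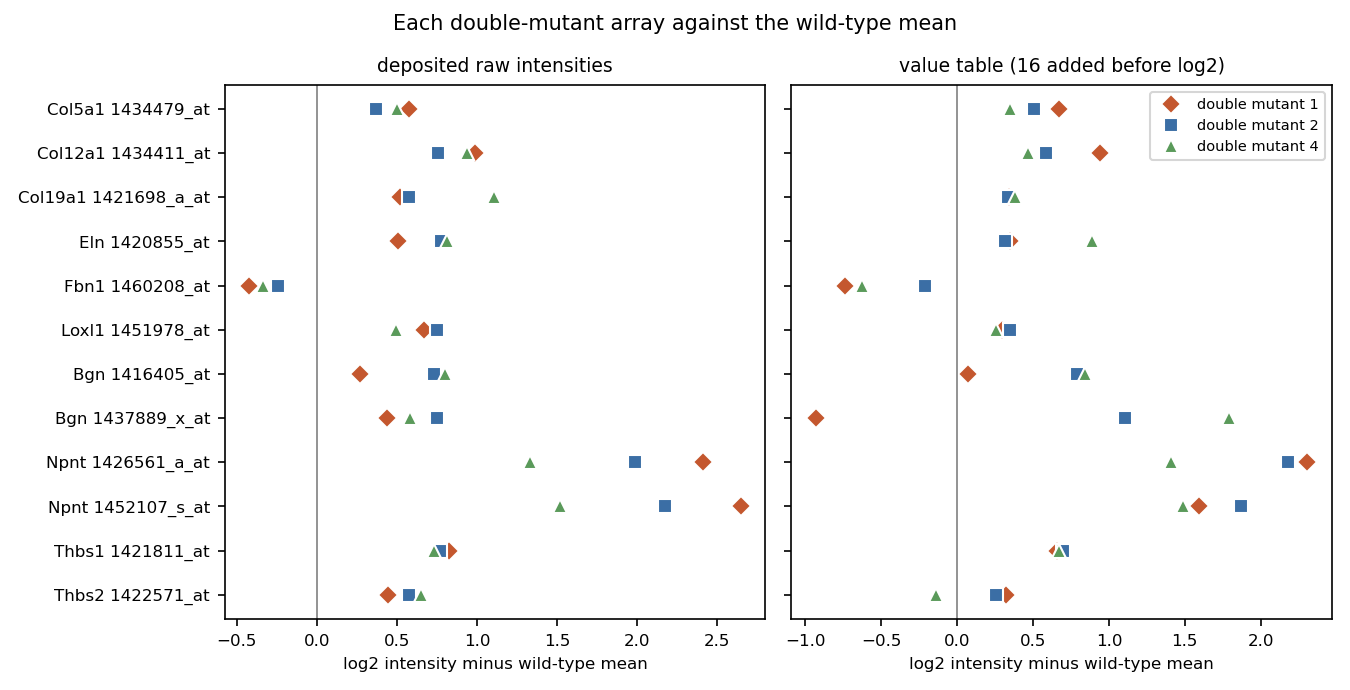
Log2 intensity of each double-mutant array minus the wild-type mean for the 12 probe sets, from the deposited raw intensities (left) and from the value table after adding 16 (right), with diamonds for double mutant 1, squares for 2 and triangles for 4. On the left all 3 mutants lie on the same side of 0 for every probe set, and on the right double mutant 1 lies at -0.93 and mutants 2 and 4 at 1.11 and 1.79 for Bgn 1437889_x_at.

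Across the members the mutants did not keep 1 order. In the deposited raw intensities mutant 1 was the highest mutant on 5 probe sets, the lowest on 6 and in the middle on 1. Within the value table it was highest, middle and lowest on 4 probe sets each. All 12 probe sets had groups that did not overlap in the deposited raw intensities, as did 100% of those listed. The value table had 9 of 12 apart, 8 higher and 1 lower. Over its 45037 probe sets 10.8% had groups that do not overlap, 6.72% higher and 4.06% lower. Without double mutant 1 it was 11 of 12, with Thbs2 the exception, against 20.7% of all. Since the submitters had selected the members on these embryos, these shares are not a result about the members. The direction of all 12 probe sets was the same in both tables, with and without double mutant 1. As the members were selected on these embryos, this is no independent agreement. For Thbs2 the value table's log2 fold change was only 0.15, and 0.06 without double mutant 1.

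The series' design asks for 3 things of a gene: a p under 0.05 without adjustment, a fold above 1.5, and a mean intensity above 100 in at least 1 genotype. All 3 held for 6 of 12 probe sets in the deposited table, and for 24.6% of those listed there. They were those of Bgn, Eln, Npnt and Thbs1. Eln passed narrowly, with a double-mutant mean of 101, as did both Bgn probe sets, with folds of 1.52 and 1.51. Fbn1 and Col5a1 missed the criteria by fold alone, while Col12a1, Col19a1 and Loxl1 missed by intensity and Thbs2 by both. Of the value table's probe sets 7, of 5 member genes, passed the intensity limit: those of Bgn, Col5a1, Fbn1, Npnt and Thbs1. Of these 7, both of Npnt and that of Thbs1 met the 3 criteria with limma's unadjusted p, as did 1.63% of 14446 probe sets. Without double mutant 1, 5 of 7 met them, those of Bgn, Npnt and Thbs1, against 2.42% of 13904. All 7 then had an unadjusted limma p under 0.05, as did 5.88% of all tested. Without the intensity limit 8 of 12 had one, against 3.65% of 45037. With array quality weights, which put nearly all the weight of the mutants on mutant 2, 6 of 7 had an adjusted limma p under 0.05, against 11.2% of 14446. The members had been selected by a test on these same embryos, so none of these counts is a result about the members.

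The remaining classes of matrix genes added few listed genes. Of 31 genes for basement membrane and adhesive glycoproteins, Npnt and Emid1 were listed, both higher. Emid1, an EMI domain gene, had raw intensities of 68.3, 81.0 and 74.9 against 95.5, 158.0 and 107.8. Of 43 genes for matrix remodelling, Sulf1 was listed, which encodes an enzyme that trims sulfate from heparan sulfate chains and so alters growth factor binding. Sulf1 had 2699, 3545 and 2449 in wild type and 3591, 4373 and 4719 in the mutants, and the authors' deposited table put the fold at 1.47 with p = 0.0491. The lowest mutant was barely above the highest wild type. Of 21 integrin genes 0 were listed. In all, 18 of 212 genes on the 7 matrix lists were listed, 15 higher and 3 lower, of which 8 were not among the 10 members, 6 higher and 2 lower, beside 60.8% higher over all listed probe sets. Over the whole array 1061 of 45101 probe sets were listed, a share of probe sets rather than of genes. Of the 10 probe sets of those 8 genes, 7 were apart in the same direction in the value table, and those of Prg4, Tgfbi and Tnr overlapped. Genes that were not listed have no name in the files and were not analysed here.

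Markers of other cell types that could lie in the excised region were also listed. Of the array's 45101 probe sets 1061 were listed, 60.8% of those as higher. Of 8 markers of glia and Schwann cell precursors, Erbb3, Foxd3, Ngfr and Sox10 were listed, all higher, with a summed raw intensity of 285 to 314 in wild type and 605 to 687 in the mutants. All 5 of their probe sets were also apart in the value table, as were 10.8% of its 45037 probe sets. They too had been selected on these embryos. Ngfr, with a pair of probe sets, made up most of that raw sum. Most of these probe sets were dim in the value table. Sox10 had 0.4, 0.5 and 0.8 there in wild type and 23.9, 4.9 and 11.2 in the mutants. Foxd3 had 1.9, 0.8 and 0.4 against 7.9, 5.9 and 12.7. The brightest, Ngfr 1454903_at, had 56, 45 and 56 against 86.3, 141.9 and 143.8. Tagln was the listed marker of 8 for pericytes and smooth muscle, at 67.1 to 79.4 in wild type and 95.1 to 114 in the mutants. Erg was the listed marker of 12 for endothelium, at 64.6 to 83.8 and 92.5 to 106.3, and Msc that of 6 for muscle, at 41.5 to 50.1 and 54.4 to 68.1. None of these stood at 0 on any array. In the value table the groups overlapped for Tagln, Erg and Msc. Erg had 17.3, 12.8 and 10.3 there in wild type and 0.9, 18.2 and 2.3 in the mutants, so that mutants 1 and 4 were below every wild type. Of 14 epithelial, 10 neuronal and 8 blood markers 0 were listed. Of 12 markers of cranial mesenchyme Pdgfrb was higher and Barx1 and Msx1 lower. Their summed intensity was 6674 to 7635 in wild type and 5432 to 6285 in the mutants. Msx1 made up most of that sum in wild type, while Pdgfrb had means of 1973 in wild type and 2770 in the mutants. Of 8 cartilage markers Ucma and Sox6 were lower, with a sum of 860.1 to 1017 in wild type and 229 to 342 in the mutants. Ucma, with a pair of probe sets, made up most of that sum in wild type. Sox6 was 1.39-fold lower in the authors' deposited table and overlapped in the value table, at 57.7, 59.7 and 55.2 against 55.5, 46.3 and 55.6. The part of these markers in the matrix results was not tested.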

How the data were processed

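Laser-dissected maxillary mesenchyme of 6 embryos was measured on Affymetrix mouse genome arrays. The value table holds linear intensity values per probe set, deposited by the authors for all 6 arrays. RMA is the tool named in the submitters' processing notes, but the values are linear and include zeros, so the summary method is not settled. The significance table holds linear intensity values that, per the file headers, are raw, and their scale differs from that of the value table. Per the file headers, the authors kept probe sets at a p-value of 0.05 by an unpaired test. The headers call this cut-off corrected but also state no multiple testing correction. An uncorrected unpaired test with equal variances on the log2 raw intensities gave 0.999 to 1.001 times the deposited p-value for all 1061 probe sets, so the p-values were read as uncorrected. Per the file headers, they also required a fold of at least 1.25, and the deposited fold is the larger group over the smaller. The 6 normalised columns of that table were not used. Gene symbols and coordinates come from the significance table, and no header or label names its build.

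From the value table, 64 control probe sets were left out, and log2(intensity + 16) was tested with limma 3.58.1 in R 4.3.3 over probe sets with a mean over 100 in either group, with Benjamini-Hochberg adjustment. The fit had no batch or replicate term. An exact test of 3 arrays against 3 cannot give a p below 0.1. The limma script was tested on simulated data. Log2 fold changes of the deposited raw intensities are differences of mean log2 values with no constant added, and have no test. Tables were summarised in Python 3.11.15 with pandas 2.3.3. All probe sets of the 10 members are named. Of the other matrix genes, up to 6 of each list are eligible, by the smallest deposited p. The members and the lists were chosen with earlier results of these data known. Other normalizations, constants, filters and array weights, and leaving out each array, were tried.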

Additional observations from a re-analysis of the deposited data

How the results depend on the processing

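No member probe set changed direction under any alternative run. The runs used the same embryos on which the members had been selected, so this is no independent support. The value table's log2 fold change was 0.01 for Thbs2 without wild type 4. For Bgn 1437889_x_at it was 0.09 without double mutant 4. The median log2 fold change over the 12 probe sets, 0.54 in the value table, ran from 0.39 to 0.60 when each array was left out in turn. The count of probe sets past an adjusted limma p of 0.05, 0 with all arrays, was 0 to 9 when each array was left out: 9 without double mutant 1, among them Npnt, and 2 without double mutant 4. It was 1619 with array quality weights, where mutant 2 had a weight of 19.98 and mutant 1 one of 0.0375, and 6 of 7 member probe sets passed, all but Fbn1. The count meeting the 3 criteria, 235, was 133 with an intensity minimum of 200 and 661 with array weights. It ran from 80 to 659 when each array was left out: 113, 106 and 80 without wild types 1, 4 and 5, and 337, 506 and 659 without mutants 1, 2 and 4. With all arrays 124 were higher and 111 lower; scaling every array to the same median gave 97 higher and 139 lower. Array numbers 1 and 4 occur in both genotypes, and the deviations of these pairs from their group means correlated at 0.07 and -0.08. Pairs with unlike numbers ran from -0.095 to 0.14. With so few pairs, and with mutant 1 apart from the other arrays, this cannot show whether arrays of the same number shared more than it. With that number as a replicate block 2 probe sets passed the adjusted p and 473 met the criteria. Npnt then had adjusted limma p-values of 0.997. Only arrays numbered 1 and 4 inform the genotype difference in that fit, so it cannot show whether Npnt depends on the pairing. The cause of these shifts was not tested. Dim probe sets limit the sizes given for Col12a1, Col19a1, Eln, Loxl1 and Thbs2.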

Other observations

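Further matrix genes were found through the gene ontology terms that the significance table carries, a choice made after its values were seen. Terms for extracellular matrix, basement membrane, collagen or microfibril marked 27 listed genes, 20 with higher and 7 with lower intensity in the double mutants, of which 8 were among the 10 genes above. Over all listed probe sets 60.8% were higher. Of the other 19, 15 were on none of the matrix lists, 10 higher and 5 lower. Their 16 probe sets were apart in the same direction in the value table for 9 and overlapped there for 7, those of Col4a4, Fgf1, Hapln2, Kazald1, Ntng1, Papln and Ptn. Among the higher ones, A930038C07Rik had raw intensities of 455, 756 and 594 in wild type and 1200, 988 and 1106 on mutants 1, 2 and 4, and the authors' deposited table gave 1.86-fold with p = 0.0168. Ptn, which encodes the heparin-binding growth factor pleiotrophin, had 1396, 1476 and 1153 against 1879, 1715 and 1596, 1.29-fold in the authors' deposited table. Col4a4, a basement membrane collagen chain, had 32.9, 28.2 and 28.6 against 46.0, 41.8 and 33.8.

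Among the lower ones, Ucma, which encodes a secreted cartilage protein, had 378, 435 and 396 in wild type and 70.9, 57.0 and 68.2 in the mutants on its probe set 1428993_at, 6.18-fold lower with p = 2.11e-05 in the authors' deposited table. Its other probe set, 1428994_s_at, had 259, 326 and 464 against 30.3, 34.9 and 145, with mutant 4 well above the other mutants. There the authors' deposited table gave 6.34-fold lower with p = 0.0250. Cthrc1, a secreted collagen triple helix repeat protein, had 603, 795 and 1018 against 501, 426 and 464. Wnt11, a WNT ligand, had 173, 188 and 143 against 102, 112 and 119, 1.51-fold lower in the authors' deposited table with p = 0.0112. In the deposited raw intensities the groups of each of these genes did not overlap, as was so for 100% of the listed probe sets.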
